A study of Homo sapiens with 36 samples.

Results

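The integrated stress response was followed here through 10 genes, ATF4, ATF5, ATF3, ASNS, CHAC1, DDIT3, DDIT4, TRIB3, SESN2 and NUPR1, out of 60656 genes in each expression file. The rule is a list of names, ATF4 itself and genes commonly read as its output, and uses no measured value, although the list was drawn up with earlier results of these data known. Each of the 10 symbols matched a single gene, and all 10 passed the filter on low values, a mean of at least 1 in some group, in each of the 3 cell lines. NUPR1 passed it in WM793 only through the groups with inhibitors, since its means there without them were 0 and 0.776. The libraries came from the human melanoma lines A375TR-NR2F1, 1205LuTR-NR2F1 and WM793TR-NR2F1, called A375, 1205Lu and WM793 below. All groups carried a Tet repressor and a doxycycline-inducible cDNA of NR2F1, an orphan nuclear receptor linked to tumor cell dormancy. Each line received DMSO as vehicle, DMSO with doxycycline (DMSO + DOX), the BRAF inhibitor PLX4720 at 1 µM with the MEK inhibitor PD0325901 at 35 nM (BRAFi + MEKi), or the inhibitors with doxycycline (BRAFi + MEKi + DOX), for 72 hours, with DOX at 100 ng/mL where given. The design has 12 groups of 3 replicates, 36 libraries in all, each from cultured cells. No group received DOX without carrying the NR2F1 cDNA, so the effect of NR2F1 and that of DOX itself cannot be told apart. The labels describe a 24 hour period with or without DOX before treatment, and it is not certain whether the groups without DOX were free of it in that time. A375 was grown in DMEM with fetal bovine serum and the other lines in Tu2% medium, so line and medium cannot be told apart for A375.

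The integrated stress response begins with kinases that sense amino acid shortage, unfolded protein in the endoplasmic reticulum, double-stranded RNA or heme shortage and phosphorylate the translation factor eIF2alpha. Bulk protein synthesis then slows, while short upstream reading frames in the ATF4 mRNA let ATF4 protein be made. ATF4 is a basic leucine zipper transcription factor that pairs with C/EBP proteins on C/EBP-ATF response elements and raises genes of amino acid synthesis, amino acid transport, tRNA charging and glutathione turnover, followed by the factors ATF3 and DDIT3 (CHOP) when stress lasts. Because ATF4 is largely set by translation, its mRNA level is not a reading of ATF4 protein, which was not measured here. In melanoma cells the pathway is known for its links to nutrient shortage, secretory load and switches of cell state.

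The genes lie on GRCh38, by GENCODE 44, at chr22:39519695-39522683 (ATF4, plus strand), chr19:49928702-49933935 (ATF5, plus), chr1:212565334-212620777 (ATF3, plus), chr7:97851677-97872542 (ASNS, minus), chr15:40952962-40956512 (CHAC1, plus), chr12:57516588-57521737 (DDIT3, minus), chr10:72273919-72276036 (DDIT4, plus), chr20:362835-397559 (TRIB3, plus), chr1:28259518-28282491 (SESN2, plus) and chr16:28532708-28539008 (NUPR1, minus). DDIT3 overlaps MARS1 and MBD6 on the other strand, and ATF5 overlaps NUP62 and IL4I1 on the other strand. Use of strand in the counting is not stated in the sources used here, so reads of these overlapping genes cannot be told apart.

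Since the members share a regulator, their promoters were searched for the core of the C/EBP-ATF response element, TGATGNAA, where N is any base, on both strands of the 250 bases before each RefSeq start site (GRCh38.p14). Promoter sequences were found for 9 of the 10 genes, all but NUPR1. The core occurred in 3 of these 9 genes and in 3.89% of 27305 genes with a promoter sequence of the same length. A gene can have several promoters, and counted by promoter it occurred in 3 of 17 for these genes and in 3.14% of all 35116. The cyclic AMP response element TGACGTCA, which cannot match the same 8 bases as the core, occurred in 0 of the 9 and in 2.03% of all genes. The 3 windows are shown because they carry the motif for which ATF4 heterodimers are known. They are written on the strand of the gene with the motif in capitals, and in CHAC1 the match is on the opposite strand, so its capitals read as the reverse complement.
ASNS: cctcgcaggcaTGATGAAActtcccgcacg
ATF3: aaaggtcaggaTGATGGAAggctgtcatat
CHAC1: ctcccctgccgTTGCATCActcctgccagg
The ASNS window is chr7:97872458-97872487, with the motif 68 to 61 bases before the start. The ATF3 window is chr1:212565205-212565234, with the motif 191 to 184 bases before the start, and lies in no annotated transcript of ATF3. The CHAC1 window is chr15:40953251-40953280, with the motif 209 to 202 bases before the start. GENCODE 44 also has transcripts that begin farther upstream, so the ASNS window falls within an untranslated exon of 3 of 17 transcripts and the CHAC1 window within an untranslated exon of 1 of 3. A match of letters is a description and not evidence of binding, and no match says only that these letters are not in the window.

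The deposited values are normalized expression values that sum to between 27027824 and 34621958 per library, and libraries of the same group correlated across genes at r = 0.947 to 0.983. The number of reads per library is not among the values. The DOX-inducible gene NR2F1 read 20699, 9155 and 9270.3 in 1205Lu with DMSO + DOX against 6273, 2182 and 2327 with DMSO, and its groups with and without DOX did not overlap in any line under DMSO or under BRAFi + MEKi. In 1205Lu with DMSO its change of 1.93 on the log2 scale did not pass the test (adjusted p = 0.412), while in the other 5 such comparisons it did. DUSP6, an immediate output of ERK signaling, fell under BRAFi + MEKi in every line, with log2 fold changes of -4.09 (1205Lu), -2.25 (WM793) and -3.13 (A375). Of 10 melanocyte lineage genes, 5 in 1205Lu, 6 in WM793 and 6 in A375 were at 10 or more in every library. SOX10, S100B and CSPG4 were at 1100 or more throughout, but the pigment genes MLANA and TYR were listed at 0 in all 12 libraries of 1205Lu, all 12 of WM793 and 11 of 12 of A375.

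A pair of libraries stood apart from their own replicates in these genes, and several values that hold them are given with and without them. In 1205Lu with BRAFi + MEKi + DOX, replicate 1 was the highest of 3 for 8 of the 10 genes, by a median of 1.84 on the log2 scale over the mean of the other 2. In A375 with DMSO + DOX, replicate 3 was the highest for 10 of 10 genes, by a median of 1.42. CHAC1 read 558, 43.9 and 47.9 across replicates 1 to 3 of the former group and 54.4, 85.6 and 1441 across those of the latter. Over all genes the same libraries deviated by medians of 0.0305 and -0.00444 and were the highest of 3 for 42.87% and 35.06% of genes. The 35 other ATF4 target genes moved with them, with 30 of 35 highest in the 1205Lu library (median 0.78) and 35 of 35 in the A375 library (median 1.14). Among the other lists counted at the end, endoplasmic reticulum genes under ATF6 and XBP1 deviated by medians of 0.12 and -0.03, basic leucine zipper partners of ATF4 by 0.35 and 0.58, p53 targets by -0.44 and -0.45, hypoxia genes by -0.35 and 0.13, ERK output genes by 0.07 and 0.41 and melanocyte lineage genes by -0.40 and -0.24. Single genes of these lists deviated more. In the 1205Lu library they included DUSP6 at 74.6 against a mean of 663 in its replicates, the hypoxia gene BNIP3 at 1247 against 4329 and the melanocyte enzyme DCT at 232 against 6.58. In the A375 library the hypoxia gene CA9 was at 4377 against 1212, and among markers of other cell types LUM was at 43.4 against 243 and PECAM1 at 40.9 against 2.18. What set these cultures apart was not tested.

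**Figure D1:**
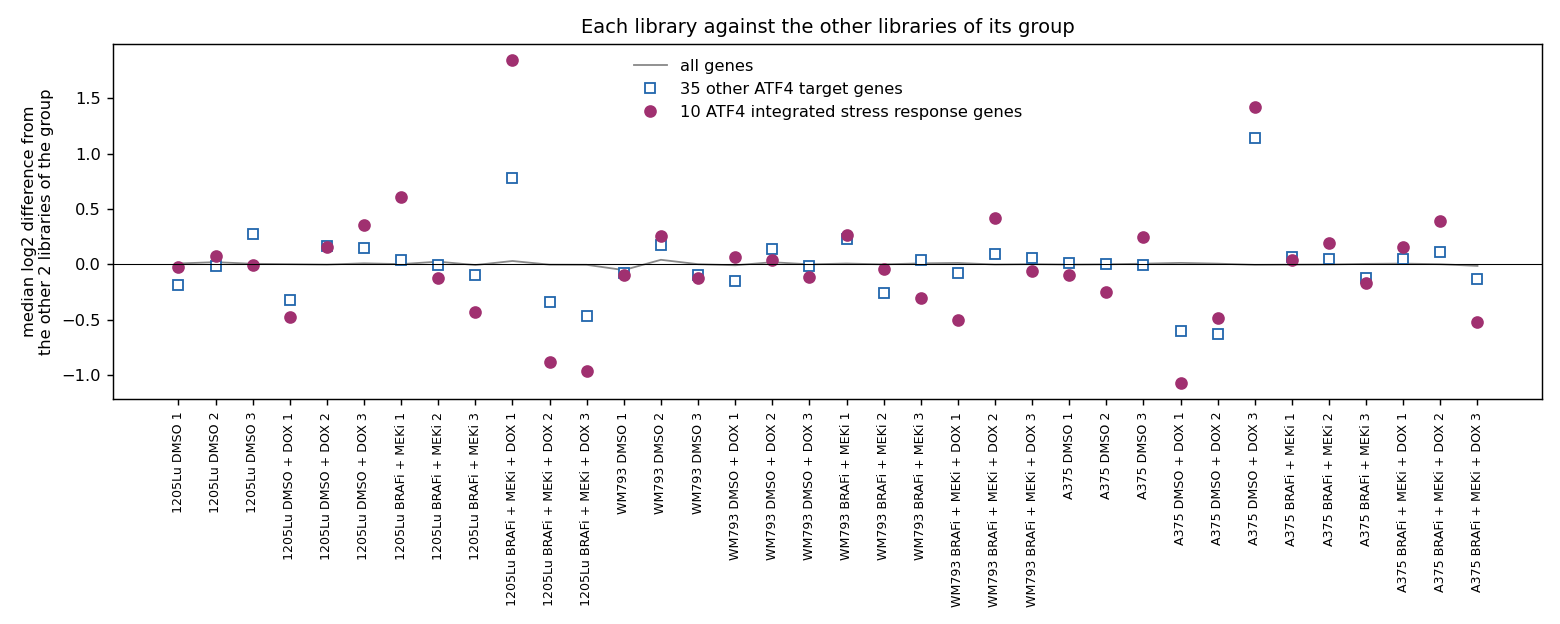
For each of the 36 libraries, the median log2 difference from the mean of the other 2 libraries of its group over the 10 integrated stress response genes (filled circles), over 35 other ATF4 target genes (open squares) and over all genes (grey line). 1205Lu BRAFi + MEKi + DOX replicate 1 and A375 DMSO + DOX replicate 3 lie at 1.84 and 1.42, while the all-gene line stays near 0.

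The first question was how BRAFi + MEKi changed the integrated stress response genes in each line, without DOX. In 1205Lu, ATF4, ASNS, CHAC1, TRIB3 and SESN2 fell and ATF3 rose. In WM793, ATF4, ATF3, ASNS, CHAC1, DDIT3 and SESN2 rose and DDIT4 fell. In A375, ATF3 and NUPR1 rose and DDIT4 fell. The counts are 6 of 10 genes called in 1205Lu (1 higher, 5 lower), where 30.9% of 22144 tested genes were called (16.5% higher, 14.4% lower). In WM793, 7 of 9 were called (6 higher, 1 lower), leaving out NUPR1, which the filter kept only for its level under inhibitors, against 37.3% of 22074 genes (20.4% higher, 16.9% lower). In A375, 3 of 10 were called (2 higher, 1 lower), against 39.5% of 24370 genes (20.5% higher, 19% lower), a share near that background. With only the libraries compared in the fit, 6 of 10 were called there, while the calls over all genes went from 9635 to 10037. The genes had a median log2 fold change of -0.67 (1205Lu), 0.90 (WM793, NUPR1 left out) and -0.17 (A375), against 0.11, 0.15 and 0.06 over all tested genes. In bulk RNA, fewer cells expressing a gene and less of its RNA per cell cannot be told apart.

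**Figure D2:**
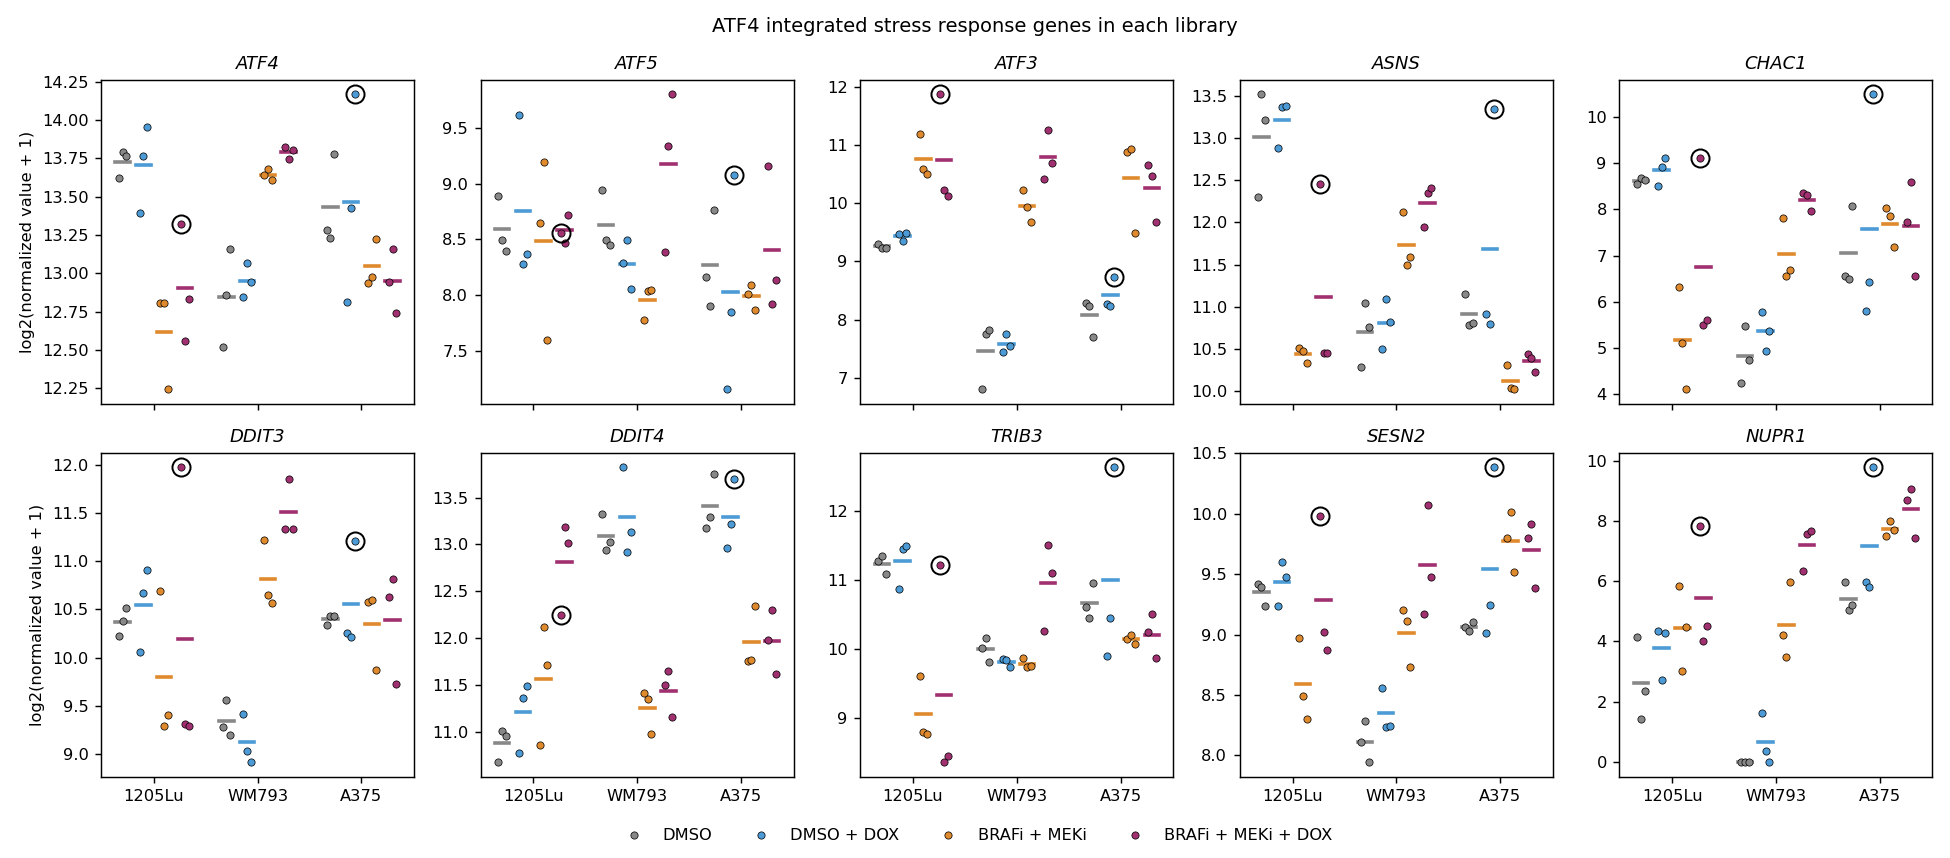
Values of the 10 genes in each of the 36 libraries as log2(normalized value + 1), by line and treatment, with short bars at the group mean of the 3 replicates and rings around 1205Lu BRAFi + MEKi + DOX replicate 1 and A375 DMSO + DOX replicate 3. CHAC1 and ASNS are high with DMSO in 1205Lu and low with BRAFi + MEKi, while in WM793 the order is the opposite.

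ATF4, the factor at the centre of the response, moved in opposite directions in 1205Lu and WM793. In 1205Lu its values were 12636.5, 14182 and 13925 with DMSO and 7153, 7161 and 4850.1 with BRAFi + MEKi. In WM793 they were 5866, 7415.5 and 9147 with DMSO and 12754.5, 13163 and 12493 with BRAFi + MEKi. Neither pair of groups overlapped, and the inhibitor libraries were all below the DMSO libraries in 1205Lu and all above them in WM793. The log2 fold change was -1.11 ± 0.21 (SE) in 1205Lu (adjusted p = 0.00139) and 0.80 ± 0.13 in WM793 (adjusted p = 0.000334), by the moderated test of limma, with p-values adjusted over all tested genes after Benjamini and Hochberg, here and throughout. In A375 the values were 9969, 9604 and 14062 with DMSO and 7843, 8051 and 9582 with BRAFi + MEKi, and although all of the latter were lower, the difference of -0.38 ± 0.26 did not pass (adjusted p = 0.259). The inhibitor effect on ATF4 differed between 1205Lu and WM793 by -1.91 ± 0.32 on the log2 scale (adjusted p = 0.000113) and between WM793 and A375 by 1.18 ± 0.32 (adjusted p = 0.00789).

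ATF5, a related factor that is also controlled by upstream reading frames, was called for BRAFi + MEKi in no line. Its values ranged from 193 to 785 over the 12 libraries of 1205Lu, from 218 to 892 in WM793 and from 142 to 571 in A375. For BRAFi + MEKi its log2 fold changes were -0.11 ± 0.38 (1205Lu), -0.68 ± 0.29 (WM793) and -0.29 ± 0.42 (A375), and none passed the test (adjusted p = 0.862, 0.0816 and 0.619). In WM793 the inhibitor libraries, at 218, 262 and 263, were all below the DMSO libraries, at 492, 360.3 and 349. That difference passed when WM793 BRAFi + MEKi + DOX replicate 1 was left out (adjusted p = 0.0168), or with only the libraries compared in the fit (0.0392).

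ATF3, a stress-induced factor and itself an ATF4 target, was the single member called in the same direction in all 3 lines. In 1205Lu it went from 631, 599.6 and 601 with DMSO to 2323, 1544.5 and 1442 with BRAFi + MEKi. In WM793 it went from 111, 214 and 226 to 1193, 981 and 819.7, and in A375 from 313, 299.5 and 206 to 1891, 1954 and 719.7. Every inhibitor library was above every DMSO library of its line. The rises were 2.83-fold, 5.60-fold and 5.15-fold on the log2(value + 1) scale (adjusted p = 0.00478, 9.69e-06 and 0.000107), and no difference between lines in this effect passed the test. DDIT3, the factor CHOP that follows ATF4 in sustained stress, was called in WM793 alone, from 622, 751 and 586 with DMSO to 2388, 1601 and 1513 with BRAFi + MEKi, a 2.76-fold rise (adjusted p = 6.82e-05). In 1205Lu DDIT3 read 1194, 1329 and 1462 with DMSO and 1647, 625 and 676 with BRAFi + MEKi. Replicate 1 of that inhibitor group was above all DMSO libraries and the other 2 were below them, and the change of -0.58 ± 0.57 did not pass (adjusted p = 0.479). In A375 the change was -0.05 ± 0.30 (adjusted p = 0.921). The effect differed between 1205Lu and WM793 by -2.05 ± 0.64 (adjusted p = 0.0282), a call that was lost without any single library among 1205Lu DMSO replicate 3, 1205Lu BRAFi + MEKi replicates 2 and 3, WM793 DMSO replicates 1 and 3 and WM793 BRAFi + MEKi replicate 1 (adjusted p = 0.0549 to 0.0819).

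ASNS, asparagine synthetase, and CHAC1, an enzyme that breaks down glutathione, are among the most direct ATF4 outputs and showed the widest split between lines. In 1205Lu, ASNS went from 5039, 11732.5 and 9504 with DMSO to 1460.4, 1419 and 1287 with BRAFi + MEKi. In WM793 the corresponding values were 1244, 2115 and 1739 and then 4471, 2896 and 3069.6. A375 had 2273, 1758 and 1796 and then 1272, 1045 and 1041. No DMSO library overlapped an inhibitor library in any line, and the inhibitor libraries were lower in 1205Lu and A375 and higher in WM793. ASNS was 5.95-fold lower in 1205Lu (adjusted p = 0.000566) and 2.06-fold higher in WM793 (adjusted p = 0.00206). In A375 the change of -0.79 ± 0.47 did not pass with all 12 libraries in the fit (adjusted p = 0.198), but passed when DMSO + DOX replicate 3, which is in neither group, was left out (adjusted p = 0.000352).

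CHAC1 in 1205Lu read 374, 408 and 399 with DMSO and 78.4, 33.4 and 16.2 with BRAFi + MEKi. In WM793 it read 17.8, 43.4 and 25.6 with DMSO and 226, 93.6 and 102 with the inhibitors. In A375 it read 93.6, 89.4 and 270.5 with DMSO and 262, 229.8 and 145 with the inhibitors. The DMSO libraries were all above the inhibitor libraries in 1205Lu, all below them in WM793 and mixed with them in A375, where DMSO replicate 3 was the highest library. The change was 10.9-fold lower in 1205Lu (log2 -3.45 ± 0.76, adjusted p = 0.00366), 4.64-fold higher in WM793 (log2 2.21 ± 0.41, adjusted p = 0.000749) and 0.65 ± 0.93 on the log2 scale in A375 (adjusted p = 0.614). The inhibitor effect differed between 1205Lu and WM793 by -5.66 ± 1.19 for CHAC1 (adjusted p = 0.00127) and by -3.61 ± 0.64 for ASNS (adjusted p = 0.000182). Between 1205Lu and A375 it differed by -4.10 ± 1.19 for CHAC1 (adjusted p = 0.0186, and 0.0635 without 1205Lu BRAFi + MEKi replicate 3).

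TRIB3, a pseudokinase that dampens ATF4 and AKT signaling, and SESN2, a leucine-sensing inhibitor of mTORC1, both fell in 1205Lu. TRIB3 in 1205Lu went from 2488, 2611 and 2167 with DMSO to 779, 442 and 432 with BRAFi + MEKi, 4.55-fold lower (adjusted p = 0.00845, and 0.0504 without BRAFi + MEKi replicate 3 or 0.0572 with no filter on low values). In WM793 it read 1035, 1141 and 898 with DMSO and 933, 851 and 857 with BRAFi + MEKi, and these overlapping groups differed by -0.21 ± 0.23 (adjusted p = 0.496). TRIB3 and ATF5 were the members not called in WM793. In A375 TRIB3 changed by -0.53 ± 0.48 (adjusted p = 0.408, and 0.0407 without DMSO + DOX replicate 3).

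SESN2 read 684, 673 and 601 with DMSO and 500.0, 358 and 315 with BRAFi + MEKi in 1205Lu, and 275, 311 and 246 with DMSO and 588, 552 and 425 with BRAFi + MEKi in WM793. The groups did not overlap in either line, with the inhibitor libraries lower in 1205Lu and higher in WM793. The fall in 1205Lu was 1.70-fold (adjusted p = 0.0392), and the rise in WM793 was 1.87-fold (adjusted p = 0.00524). The 1205Lu call was lost with no filter on low values (0.151), with the libraries rescaled to the same total (0.0836) and on leaving out any of the 3 DMSO libraries, DMSO + DOX replicates 2 and 3, BRAFi + MEKi replicates 2 and 3 or BRAFi + MEKi + DOX replicate 2 (adjusted p = 0.0526 to 0.157). In A375, SESN2 read 533, 523 and 550.0 with DMSO and 892, 1032 and 730.2 with BRAFi + MEKi, all of the latter higher, and the change of 0.71 ± 0.28 passed without DMSO + DOX replicate 3 (adjusted p = 0.00402) or replicate 1 (0.0358) but not with all libraries (adjusted p = 0.0558). The effect on SESN2 in 1205Lu minus that in WM793 was -1.67 ± 0.39 (adjusted p = 0.00353), and minus that in A375 it was -1.47 ± 0.39 (adjusted p = 0.00994).

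DDIT4 (REDD1), an inhibitor of mTORC1 that responds to ATF4 as well as to hypoxia and glucocorticoids, fell in WM793 and A375. In WM793 it went from 10224.5, 7866 and 8319 with DMSO to 2734, 2613 and 2013 with BRAFi + MEKi. In A375 it went from 9221, 10043 and 13825 to 3451, 3488 and 5190.4. In 1205Lu it read 1637, 2064 and 1979.6 with DMSO and 1856, 4455 and 3355 with BRAFi + MEKi. All inhibitor libraries were below all DMSO libraries in WM793 and A375, while in 1205Lu the groups overlapped. DDIT4 was 3.60-fold lower in WM793 (adjusted p = 1.32e-05) and 2.74-fold lower in A375 (adjusted p = 0.000177). In 1205Lu the change was 0.68 ± 0.30 (adjusted p = 0.106, and 0.0206 without BRAFi + MEKi replicate 1). The effect in 1205Lu exceeded that in WM793 by 2.53 ± 0.40 (adjusted p = 4.76e-05) and that in A375 by 2.14 ± 0.40 (adjusted p = 0.000438). WM793 and A375, where DDIT4 fell together, differed by -0.39 ± 0.40 (adjusted p = 0.537).

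NUPR1 is a small chromatin-associated stress protein. In WM793 it was listed at 0 in all 3 DMSO libraries and at 17.4, 10.2 and 61.8 with BRAFi + MEKi, so no fold is given, nor a test, since the filter kept it in this line only through the groups with inhibitors. In A375 it read 61.6, 31.9 and 36.2 with DMSO and 182, 252 and 208 with BRAFi + MEKi, 5.01-fold higher (adjusted p = 0.0309). That call was lost on leaving out any of the 6 libraries compared, with adjusted p from 0.051 without DMSO replicate 1 to 0.1 without DMSO replicate 2, and with no filter on low values (0.189), although the groups did not overlap. In 1205Lu the values were 16.5, 1.67 and 4.09 with DMSO and 56.3, 7.09 and 21.3 with BRAFi + MEKi, and the change of 1.81 ± 1.02 did not pass (adjusted p = 0.199).

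**Figure D3:**
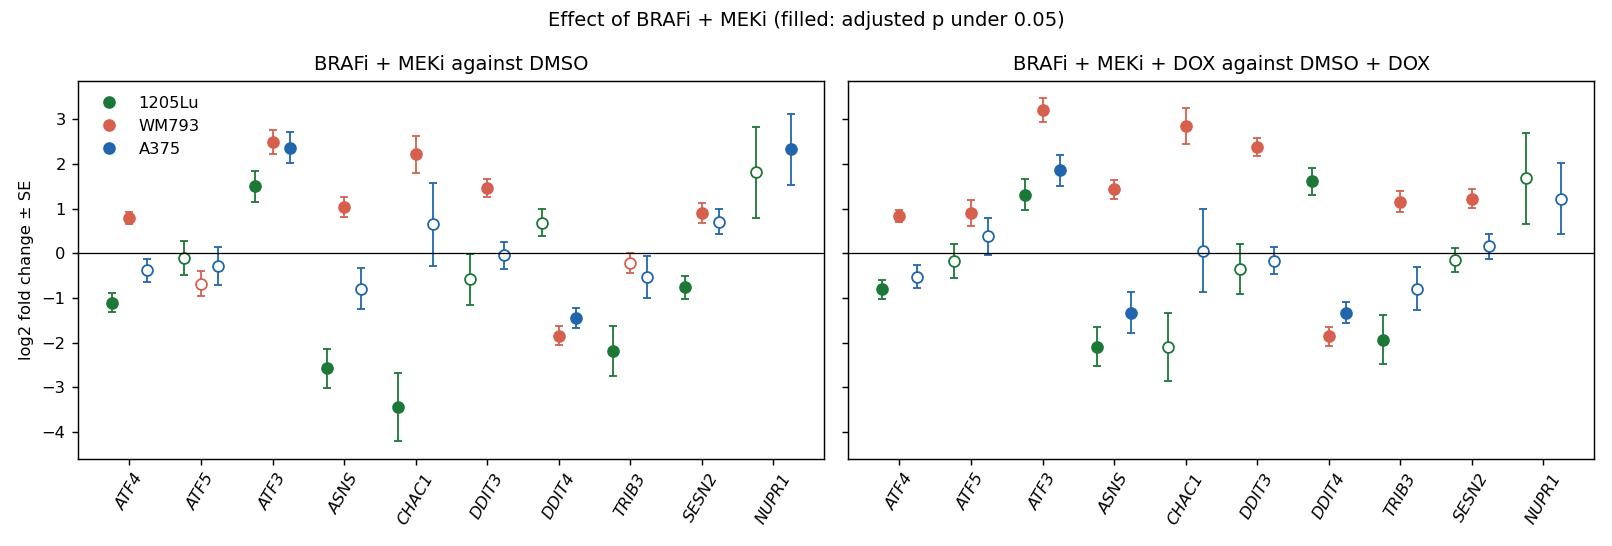
Log2 fold change with SE of each of the 10 genes for BRAFi + MEKi against DMSO (left) and BRAFi + MEKi + DOX against DMSO + DOX (right) in 1205Lu, WM793 and A375, filled where the adjusted p is under 0.05. NUPR1 in WM793 is left out because the filter kept it there only through the groups with inhibitors. ATF3 is above 0 in every line and arm, while ATF4, ASNS and CHAC1 lie below 0 in 1205Lu and above 0 in WM793.

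The lines were then compared directly for the inhibitor effect, since a gene called in a single line is not thereby shown to differ between lines. Between 1205Lu and WM793, 6 of 10 genes differed (5 lower in 1205Lu, 1 higher), where 14.5% of 26779 genes did (7.94% lower, 6.52% higher). Between 1205Lu and A375, 3 of 10 differed, CHAC1, SESN2 and DDIT4, where 14.7% of genes did. Between WM793 and A375, 2 of 10 differed, ATF4 and ASNS, where 22.8% of genes did. ASNS differed between WM793 and A375 by 1.83 ± 0.64 (adjusted p = 0.0373). That call was lost without any single library among WM793 DMSO replicates 1 and 3, WM793 BRAFi + MEKi replicates 1 and 3, all 3 A375 DMSO replicates and A375 BRAFi + MEKi replicates 2 and 3 (adjusted p = 0.0511 to 0.0998). When both libraries that stood apart were left out together, an alternative chosen after seeing the data, TRIB3 also differed between 1205Lu and WM793 (log2 -1.97, adjusted p = 0.000144), and ATF4, ASNS and TRIB3 also differed between 1205Lu and A375 (adjusted p = 0.049, 0.00034 and 0.00111). Between WM793 and A375 the count then went from 2 to 3 of 10, and the calls over all genes from 6117 to 6578. ASNS also passed for 1205Lu against A375 without 1205Lu DMSO replicate 1 (0.0317) or A375 DMSO + DOX replicate 2 (0.0476). With no filter on low values the calls of DDIT3 between 1205Lu and WM793, CHAC1 between 1205Lu and A375 and ASNS between WM793 and A375 were lost (0.103, 0.0693 and 0.126). The 3 comparisons of lines share groups.

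The same inhibitor effect was measured in the presence of DOX, in other libraries. In 1205Lu, 5 of 10 genes were called (2 higher, 3 lower) where 28.2% of genes were (15.1% higher, 13.2% lower). In WM793, 9 of 9 were called (8 higher, 1 lower), NUPR1 left out, where 31.7% were (16.7% higher, 15.1% lower). In A375, 3 of 10 were called (1 higher, 2 lower) where 31% were (16.2% higher, 14.8% lower). Every gene called in both arms of a line had the same sign in both. Among markers of other cell types, described at the end, 5 of 9 tested rose and 1 fell in this arm of A375. In 1205Lu 1 of 5 rose, and in WM793 0 of 7 were called. Their sum was 860 to 1260 with the inhibitors against 176 to 418 in A375, and 101 to 192 against 5.54 to 36.1 in 1205Lu. The sums overlapped in WM793 (502.5 to 655 against 397 to 566). In WM793, ATF4 rose from 7342, 8566 and 7878 to 14490.4, 13741 and 14294.5, ASNS from 1441, 2180.1 and 1809 to 3932, 5216 and 5436, CHAC1 from 54.0, 29.7 and 40.5 to 327, 319 and 249 and DDIT3 from 682, 519.9 and 482 to 2588, 3695 and 2577. These groups did not overlap, and the rises were 1.79-, 2.7-, 7.21- and 5.24-fold (adjusted p = 0.000287, 0.000229, 0.00013 and 1.6e-06). TRIB3, not called without DOX, rose from 920.5, 911 and 848 to 1229, 2919 and 2201 (2.23-fold, adjusted p = 0.00159). ATF5 was called with overlapping groups, from 311, 359 and 265 to 334, 648 and 892 (adjusted p = 0.0287), and lost its call without DMSO + DOX replicate 1 or 3 or BRAFi + MEKi + DOX replicate 2 or 3 (adjusted p = 0.0777 to 0.151), with no filter (0.115) or with only the libraries compared (0.132). ATF3 rose 9.19-fold (adjusted p = 1.74e-06), SESN2 rose 2.34-fold (adjusted p = 0.000745) and DDIT4 was 3.62-fold lower (adjusted p = 1.81e-05). NUPR1 went from 2.06, 0.271 and 0 to 79.9, 190.3 and 201, with no test for the reason given above.

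In 1205Lu with DOX the comparison holds the library that stood apart. Its 5 calls became 1 with only the libraries compared in the fit, DDIT4, and 2 with no filter on low values, ASNS and DDIT4. Over all genes the calls went from 6252 to 5165 and 4155. ATF4 fell by 0.80 on the log2 scale (adjusted p = 0.012), ASNS by 2.09 (0.00288) and TRIB3 by 1.93 (0.0183), while ATF3 rose by 1.31 (0.0122) and DDIT4 by 1.61 (0.00154). TRIB3 illustrates the spread: it read 1873, 2789.5 and 2883 with DMSO + DOX and 2377, 327 and 345 with BRAFi + MEKi + DOX, so replicate 1 of the inhibitor group lies among the DMSO + DOX libraries. CHAC1, at 363, 486 and 552 and 558, 43.9 and 47.9, was not called with all libraries (log2 -2.11 ± 0.76, adjusted p = 0.0532). Without BRAFi + MEKi + DOX replicate 1, 7 of 10 genes were called. Over all genes, leaving out each of the 12 libraries in turn gave 4601 to 6340 calls, against 6252 with none left out. In the fit without replicate 1 of that group, ATF3 was at a log2 fold change of 0.74 (adjusted p = 0.0119). CHAC1 was at -3.30 (adjusted p = 0.000614) and DDIT3 at -1.25 (adjusted p = 0.0279), while NUPR1, not called in either fit, went from 1.68 to 0.49. ASNS and TRIB3 were then at -2.76 and -2.87 (adjusted p = 7.22e-05 and 2.9e-05). The ATF4 call was lost without DMSO + DOX replicate 3 (adjusted p = 0.0623) or BRAFi + MEKi + DOX replicate 2 (0.0716), and the TRIB3 call without DMSO + DOX replicate 2 or 3 (0.0696 and 0.0692) or BRAFi + MEKi + DOX replicate 2 or 3 (0.115 and 0.102).

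In A375 with DOX, ATF3 rose 3.62-fold (adjusted p = 0.00114), DDIT4 was 2.51-fold lower (adjusted p = 0.000567) and ASNS 2.51-fold lower (adjusted p = 0.0438). ASNS read 1932, 1780.4 and 10393 with DMSO + DOX and 1393, 1344 and 1201 with BRAFi + MEKi + DOX, so the groups did not overlap, although DMSO + DOX replicate 3 alone is several times above its replicates. The ASNS call held without any of the 3 DMSO + DOX libraries, with a log2 fold change of -0.50 (adjusted p = 0.0193) without replicate 3. It was lost with all low genes kept (0.25), in a fit of only the libraries compared (0.225), with array weights (0.0604), with the libraries rescaled to the same total (0.0609) and without any of the 9 other libraries of the line, which left the difference between -1.37 and -1.27 (adjusted p = 0.0611 to 0.11). NUPR1, at 61.4, 54.4 and 875 with DMSO + DOX and 417, 532 and 171 with BRAFi + MEKi + DOX, rose without DMSO + DOX replicate 3 (log2 2.52, adjusted p = 0.00107) but did not pass with it (log2 1.22 ± 0.79, adjusted p = 0.27), while CHAC1 went from 0.06 to 1.52 without it (adjusted p = 0.0717), and SESN2 likewise passed without that library (adjusted p = 0.0341). ATF4 and TRIB3 passed only without DMSO + DOX replicate 1 (adjusted p = 0.0116 and 0.0395). Without replicate 3 of that group, the library that stood apart, ATF4 went from -0.52 to -0.17 (adjusted p = 0.582). TRIB3 then went from -0.79 to 0.03 (adjusted p = 0.948).

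The genes also differed between lines before any inhibitor. With DMSO, 7 of 10 genes differed between 1205Lu and WM793, where 30.7% of 26779 genes did (16.2% higher in 1205Lu, 14.5% lower), and 6 of the 7 were higher in 1205Lu. CHAC1 was 14.0-fold (adjusted p = 0.000647), ASNS 4.97-fold (0.00015), ATF3 3.47-fold (0.000261), SESN2 2.36-fold (0.000731) and ATF4 1.84-fold (0.00319) above WM793, and DDIT4 was 4.64-fold below it (2.57e-07). The genes higher in 1205Lu with DMSO therefore include 4 of the 5 that fell there under BRAFi + MEKi, ATF4, ASNS, CHAC1 and SESN2, a comparison that uses the same DMSO libraries on both sides. NUPR1 was higher in 1205Lu than in WM793, where it is listed at 0 (adjusted p = 0.0306), a call lost without 1205Lu DMSO replicate 1 or 3 or any WM793 DMSO library (adjusted p = 0.0504 to 0.188) and with no filter (0.101). With BRAFi + MEKi, CHAC1 was at 42.7 ± 32.1 (mean ± SD, n = 3) in 1205Lu, where all libraries were below those of WM793, at 141 ± 74.0, and of A375, at 212 ± 60.3, and no test was run on this.

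Between 1205Lu and A375, 4 of 10 differed with DMSO, against 46.8% of genes (19.4% higher in 1205Lu, 27.4% lower). ATF3 (2.27-fold, adjusted p = 0.00851) and ASNS (4.28-fold, 0.000273) were higher in 1205Lu, and DDIT4 (5.76-fold, 9.66e-09) and NUPR1 (6.86-fold, 0.0148) were lower. The ATF3 call was lost without A375 DMSO replicate 3 (0.0516) and the NUPR1 call without 1205Lu DMSO replicate 2 (0.0919) or A375 DMSO replicate 1 (0.0594). Between WM793 and A375, 4 of 10 differed, all lower in WM793, against 47.5% of genes (28.8% lower in WM793, 18.7% higher). They were ATF4 (1.5-fold, adjusted p = 0.0357), CHAC1 (4.71-fold, 0.0292), SESN2 (1.94-fold, 0.0051) and NUPR1, listed at 0 in WM793 (1.54e-05). The ATF4 call was lost without WM793 DMSO replicate 1 or 2 or A375 DMSO replicate 3 (0.19, 0.0672 and 0.199), and the CHAC1 call without WM793 DMSO replicate 1 or 3 or A375 DMSO replicate 3 (0.106, 0.0644 and 0.146). With no filter on low values the ATF4, CHAC1 and, for 1205Lu, NUPR1 calls were lost as well (0.108, 0.0989 and 0.0514). The shares in both comparisons with A375 were near the background.

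DOX, which switches on NR2F1, was next compared with no DOX. Under DMSO, 0 of 10 genes were called in 1205Lu, WM793 or A375, where 0.00903%, 0.512% and 0.0492% of genes were called by the same limma test. At an unadjusted p under 0.05 there were 0, 0 and 1 of 10, where 6.85%, 9.92% and 7.95% of all genes were, the last being NUPR1 in A375 (log2 1.77 ± 0.79, unadjusted p = 0.0426), whose DMSO + DOX group holds the library that stood apart. Without that library the NUPR1 difference was 0.47 (adjusted p = 0.773), and those of CHAC1, ASNS and TRIB3 went from 0.53, 0.77 and 0.32 to -0.93, -0.06 and -0.50, none of them called. ATF3 in 1205Lu was the only member whose DMSO + DOX libraries, at 709, 649.6 and 717, were all above its DMSO libraries, at 631, 599.6 and 601, where 5.35% of genes were so ordered. The difference was 0.18 ± 0.35 (adjusted p = 0.967).

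Under BRAFi + MEKi, 0 of 10 genes were called for DOX in any line, where 0.334% of genes in 1205Lu, 0.204% in WM793 and 1.52% in A375 were. At an unadjusted p under 0.05 there were 2 of 10 in 1205Lu, 8 of 10 in WM793 and 0 of 10 in A375, where 9.72%, 7.95% and 10.6% of all genes were. In WM793 all 10 log2 fold changes were above 0, with a median of 0.77 against 0.00 over all genes, and for 7 of 10 genes the BRAFi + MEKi + DOX libraries were all above the BRAFi + MEKi libraries, as for 6.94% of all tested genes. The summed markers of other cell types, described at the end, were also higher with DOX (502.5 to 655 against 299 to 314). Of 7 markers tested, 3 had an unadjusted p under 0.05 and 0 were called. TRIB3 read 933, 851 and 857 without DOX and 1229, 2919 and 2201 with it, 2.26-fold higher (adjusted p = 0.0689). ATF5 read 218, 262 and 263 and 334, 648 and 892, 2.34-fold higher (adjusted p = 0.158). Neither had been called for BRAFi + MEKi without DOX in this line. CHAC1 read 226, 93.6 and 102 and 327, 319 and 249 (log2 1.19 ± 0.41, adjusted p = 0.403). With array weights, 6 of 10 members were called in WM793, 1 of 10 in 1205Lu and 0 of 10 in A375. Over all genes 478, 1379 and 1035 were then called.

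NUPR1 in WM793 read 17.4, 10.2 and 61.8 with BRAFi + MEKi and 79.9, 190.3 and 201 with DOX added (log2 2.64 ± 0.70, adjusted p = 0.228). The other non-overlapping members were ATF3 (0.84 ± 0.27), DDIT3 (0.70 ± 0.20) and ATF4 (0.15 ± 0.13) with adjusted p of 0.367, 0.29 and 0.862. Replicate numbers paired the libraries in this comparison, and with replicate as a block TRIB3 passed (adjusted p = 0.0372), making 1 of 10. Over all genes 127 were called in the blocked fit. BRAFi + MEKi + DOX replicate 1 was the lowest of its group for ATF5, ATF3, ASNS, TRIB3, SESN2 and NUPR1. Without it, TRIB3 (log2 1.53, adjusted p = 0.00633) and ATF5 (log2 1.62, adjusted p = 0.0138) passed. That fit kept the paired library, BRAFi + MEKi replicate 1. The difference between the DOX effects with and without inhibitors passed for 0 of 10 genes in each line, and for 0%, 0% and 0.46% of all genes in 1205Lu, WM793 and A375, with 1, 3 and 0 of 10 at an unadjusted p under 0.05, where 5.72%, 5.72% and 7.25% of all genes were. For TRIB3 in WM793 this difference was 1.37 ± 0.32 (adjusted p = 0.477), which passed once BRAFi + MEKi + DOX replicate 1 was dropped (0.0485).

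**Figure D4:**
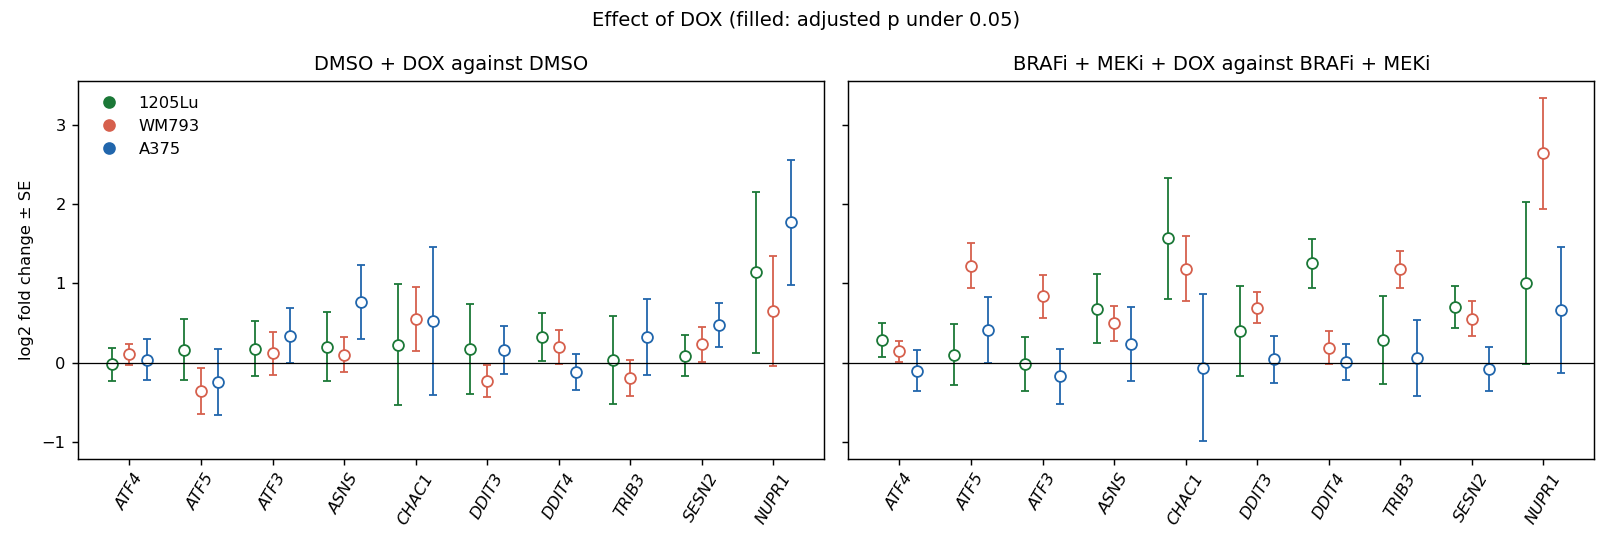
Log2 fold change with SE of each of the 10 genes for DOX under DMSO (left) and under BRAFi + MEKi (right) in 1205Lu, WM793 and A375, where open circles mark an adjusted p of 0.05 or more, as for all points here. Under BRAFi + MEKi the 10 WM793 points all lie above 0 and DDIT4 in 1205Lu lies at 1.25.

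In 1205Lu under BRAFi + MEKi, DDIT4 was the only member whose libraries with DOX did not overlap those without. It read 1856, 4455 and 3355 without DOX and 4867.5, 9302 and 8283 with it, all of the latter higher, by 2.38-fold, as 6.06% of genes were so ordered (adjusted p = 0.113). Replicate numbers paired the libraries here too, and the blocked fit gave an adjusted p of 0.00275, 1 of 10 called, with 364 calls over all genes. Without BRAFi + MEKi + DOX replicate 1, where DDIT4 was the lowest of its group, the log2 fold change was 1.54 (adjusted p = 0.0301). That fit kept the paired library, BRAFi + MEKi replicate 1, where DDIT4 was also the lowest of its group. CHAC1 (log2 1.57 ± 0.76) and SESN2 (0.70 ± 0.26) were above 0 but their groups overlapped. Within every pair both were higher with DOX, although the blocked fit called neither. CHAC1 read 78.4, 33.4 and 16.2 without DOX and 558, 43.9 and 47.9 with it. SESN2 read 500, 358 and 315 and then 1008, 518 and 467. In a fit that kept BRAFi + MEKi replicate 1 but left out BRAFi + MEKi + DOX replicate 1, they were 0.38 (adjusted p = 0.759) and 0.36 (0.396). Of the 10 log2 fold changes, 9 were above 0 with that library and 6 without it. The DOX effect under BRAFi + MEKi passed the test of a difference between lines for no member (0 of 10 for each pair of lines, where 0.138%, 0.179% and 0.881% of genes did, with 1, 1 and 0 of 10 at an unadjusted p under 0.05, where 7.11%, 8.07% and 8.36% of all genes were). For DDIT4 it was higher in 1205Lu than in A375 by 1.24 ± 0.40 (adjusted p = 0.269). This passed once 1205Lu BRAFi + MEKi + DOX replicate 1 was dropped and the library paired with it kept (0.0462). It also passed with replicate as a block (0.0392), where the numbers were taken as pairs in 1205Lu but not in A375. With both libraries that stood apart left out, TRIB3 was lower in 1205Lu than in WM793 by the same measure (log2 -1.83, adjusted p = 0.00683). That alternative was chosen after seeing the data. Between these lines the median difference over the 10 genes then went from -0.08 to -0.96. Genes above 0 went from 5 to 1, and those at an unadjusted p under 0.05 from 1 to 5. This fit kept 1205Lu BRAFi + MEKi replicate 1, the pair of a library left out, where TRIB3 read 779 against 442 and 432 in its replicates. How far these shifts come from the broken pair was not tested. In A375 under BRAFi + MEKi the 10 log2 fold changes for DOX ran from -0.17 to 0.66, and no member's groups were fully ordered.

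How the members varied together was described over the 36 libraries, centred on the mean of each line. ASNS and TRIB3 (r = 0.892), ATF4 and ASNS (0.887), CHAC1 and SESN2 (0.876) and ATF4 and CHAC1 (0.853) were the closest of 45 pairs. DDIT4 had a negative r with every other member, from -0.0356 with ATF5 to -0.587 with ATF3, but within A375 it followed ATF4 (r = 0.79), as against -0.923 in WM793 and -0.553 in 1205Lu. ATF3 and ATF4 varied together in WM793 (0.964) and not in 1205Lu (-0.598) or A375 (-0.51). Without both libraries that stood apart, these closest pairs had r of 0.847 to 0.872 over 34 libraries, and ATF3 and NUPR1 came first (0.874). These libraries share treatments, so the values describe the treatment pattern as much as the genes. Outside the list, the genes with a pattern most like the mean of the 10 members, among 10949 with a mean of at least 100 in each line, were LURAP1L (r = 0.878), IFRD1 (0.878), CEBPG (0.861), CLIP1 (0.808), IFI35 (0.8), SLC22A15 (0.794), MICAL2 (0.792), MARS1 (0.765), JDP2 (0.761) and SHISA5 (0.751) over 36 libraries. Without both libraries that stood apart, 6 of these genes were among the first 10, and SLC22A15, SHISA5, JDP2 and MARS1 came at 19, 28, 34 and 58.

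The wider set of ATF4 target genes was counted from a list of 35 that holds no member. Over all genes under BRAFi + MEKi, 16.5% rose and 14.4% fell in 1205Lu, 20.4% and 16.9% in WM793 and 20.5% and 19% in A375. In 1205Lu under BRAFi + MEKi, 0 rose and 24 fell, with a median log2 fold change of -1.13. In A375, 0 rose and 17 fell (median -0.68), and in WM793, of 34 tested, 8 rose and 8 fell (median -0.09). In 1205Lu the largest falls with non-overlapping groups were in GDF15, a stress cytokine (log2 -4.42, adjusted p = 0.00478), SLC6A9, a glycine transporter (-2.83, 0.000153), and MTHFD2 and PSAT1, enzymes of mitochondrial one-carbon metabolism and serine synthesis (-2.38 and -2.35, 1.15e-05 and 0.000195). In A375 they were GDF15 (-3.75, adjusted p = 1.88e-05), STC2, a secreted glycoprotein (-2.20, 0.000254), EIF4EBP1, a repressor of cap-dependent translation (-2.00, 4.46e-05), and PHGDH, which starts serine synthesis (-1.85, 0.00011).

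In WM793 the same list split. STC2 rose from 1066, 935 and 529 with DMSO to 4049, 8616 and 8146 with BRAFi + MEKi (log2 3.02, adjusted p = 3.37e-05). ALDH1L2, a mitochondrial folate enzyme, rose by 1.83 (adjusted p = 4.82e-05) and VLDLR, a lipoprotein receptor, by 1.66 (adjusted p = 1.22e-06), while GDF15 fell by 2.77 (adjusted p = 0.000255). GDF15 thus fell in all 3 lines, from 558, 432 and 678 to 87.1, 44.7 and 128 in WM793, although ATF4 and CHAC1 rose there. Tested directly, the inhibitor effect was lower in 1205Lu than in WM793 for 21 of 35 genes and higher for 0. It was higher in WM793 than in A375 for 12 and lower for 0. Over all genes 14.5% and 22.8% differed in these comparisons. STC2 differed by -4.54 (adjusted p = 8.43e-06) and 5.23 (adjusted p = 3.57e-07). In the DOX arm the list gave 0 higher and 21 lower in 1205Lu, 12 and 2 in WM793 and 0 and 20 in A375, and without the libraries that stood apart 0 and 27 in 1205Lu and 0 and 16 in A375. For DOX under BRAFi + MEKi it gave 2 higher in 1205Lu, SLC7A1 (0.97) and CARS1 (0.69), 1 in WM793, SLC6A9 (1.06), and 0 in A375, with 33 of 35, 31 of 34 and 26 of 35 log2 fold changes above 0. Without 1205Lu BRAFi + MEKi + DOX replicate 1 the former 2 were still called. SLC7A11, a cystine transporter, was then also lower (log2 -1.91, adjusted p = 0.0153), and 25 of 35 were above 0. The library paired with it, BRAFi + MEKi replicate 1, was kept in that fit.

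**Figure D5:**
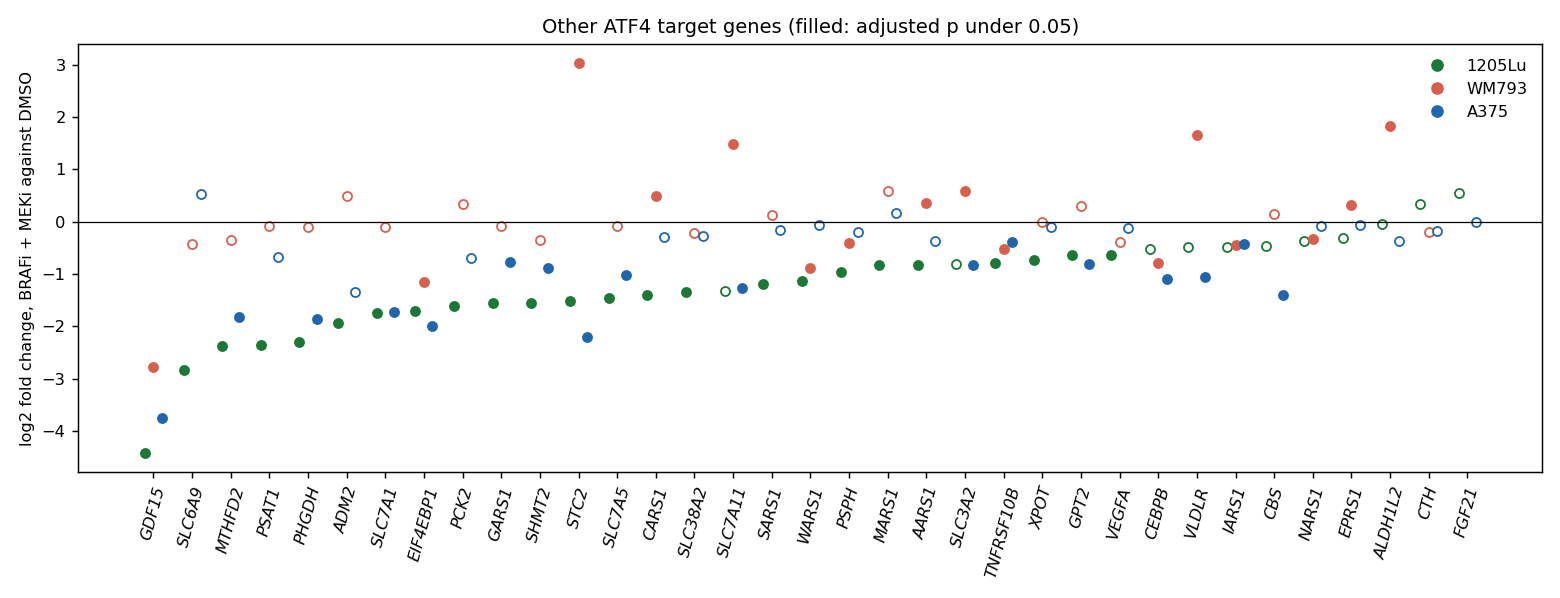
Log2 fold change for BRAFi + MEKi against DMSO of 35 other ATF4 target genes in 1205Lu, WM793 and A375, ordered by the value in 1205Lu and filled where the adjusted p is under 0.05. The called genes of 1205Lu and A375 all lie below 0, while WM793 has 8 above, with STC2 at 3.02, and 8 below.

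Upstream of ATF4, eIF2alpha kinases, phosphatase subunits and eIF2B subunits were counted under BRAFi + MEKi. Of 12 genes, 2 were higher and 2 lower in 1205Lu, 4 and 5 in WM793 and 2 and 3 in A375. Over all genes 30.9%, 37.3% and 39.5% were called in these lines, near the share of the list in 1205Lu and A375. EIF2AK2 (PKR), the kinase activated by double-stranded RNA, rose in WM793 from 3079, 3012 and 3319 to 7769, 7153 and 9377 (log2 1.36, adjusted p = 3.98e-06). PPP1R15A (GADD34), the stress-induced phosphatase subunit that reverses the response, rose in WM793 by 1.09 (adjusted p = 0.00073) and in 1205Lu by 0.67 (adjusted p = 0.00557). EIF2B3, a subunit of the eIF2B exchange factor, fell in all 3 lines, with log2 fold changes of -0.65, -0.97 and -0.62 (adjusted p = 0.00526, 0.00019 and 0.00201). The effect on EIF2AK2 was below that of WM793 in 1205Lu (log2 difference -1.38, adjusted p = 0.00029) and above that of A375 in WM793 (1.73, 8.3e-06). Kinase activity and eIF2alpha phosphorylation were not measured.

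Among 8 basic leucine zipper partners of ATF4, 2 rose and 1 fell in 1205Lu, 4 and 1 in WM793 and 2 and 4 in A375. The shares called over all genes were 30.9%, 37.3% and 39.5%, near that of the list in 1205Lu. CEBPG, which forms heterodimers with ATF4, fell by 0.99 in 1205Lu (adjusted p = 0.0383) and rose by 1.00 in WM793 (adjusted p = 0.000236), and these effects differed by -1.99 (adjusted p = 0.0012). JDP2, a repressor of the same family, rose in WM793 from 33.0, 61.5 and 30.2 to 743, 459 and 536 (log2 3.81, adjusted p = 3.59e-07). CEBPD, a factor induced in inflammation, rose by 1.27 in 1205Lu and 2.21 in WM793 and fell by 2.05 in A375 (adjusted p = 0.0127, 0.00391 and 0.0021). NFE2L2 (NRF2), the regulator of antioxidant genes, named here after its values were seen, rose in all 3 lines, by 1.17, 0.54 and 0.83 (adjusted p = 6.37e-05, 0.000936 and 2.04e-05).

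Members such as DDIT4, SESN2, ATF3 and TRIB3 also answer to other pathways, so those were counted beside them for BRAFi + MEKi against DMSO. Endoplasmic reticulum genes under ATF6 and XBP1 had 0 higher and 5 lower of 16 in 1205Lu, 1 and 5 in WM793 and 5 and 3 in A375. Targets of p53 had 1 higher and 3 lower of 14 in 1205Lu, 5 and 2 of 14 in WM793 and 2 and 4 of 13 in A375. Hypoxia genes had 3 higher and 1 lower of 13 in 1205Lu, 3 and 3 of 14 in WM793 and 1 and 10 of 14 in A375, where CA9, a marker of hypoxia, fell by 6.93 (adjusted p = 5.72e-06) beside the fall of DDIT4. Glucocorticoid and FOXO genes had 7 higher and 1 lower of 11 in 1205Lu, 6 and 1 in WM793 and 7 and 3 in A375. ERK output genes fell in every line, 13 of 15 in 1205Lu, 14 of 15 in WM793 and 14 of 15 in A375, and none rose. Melanocyte lineage genes had 5 higher and 1 lower of 8 in 1205Lu, 4 and 2 of 8 in WM793 and 6 and 1 of 9 in A375. The 11 markers of other cell types, of epithelium, fibroblasts, endothelium and blood, summed to between 5.54 and 192 per library in 1205Lu, 299 and 655 in WM793 and 176 and 1260 in A375, and 9, 9 and 7 of 11 had a median under 10. Their sum was higher with BRAFi + MEKi than with DMSO in 1205Lu (63.6 to 117 against 7.89 to 18.2) and A375 (1032 to 1060 against 382 to 820) and lower in WM793 (299 to 314 against 346 to 467). EPCAM, CDH1 and KRT5 were at 0 in every 1205Lu library. LUM and DCN were at 10 or more in every library of WM793 and A375, as was KRT14 in A375. The part of these pathways in the members' changes was not tested.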

How the data were processed

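RNA-seq was performed on 36 libraries, 3 replicates in each of 12 groups. The deposited signal values are expression per gene that the authors made by STAR 2.7.0 alignment to GRCh38 with GENCODE 35, RSEM 1.2.28 quantification and DESeq2 1.28.1 normalization. They are not whole reads, so no count model was fitted and depth per library is unknown. The commonest low value, a rough reading of what 1 read is worth, lay between 0.49 and 5.11 (median 1.0), so shallower libraries resolve low genes less well. IDs were matched to GENCODE 44 symbols (60445 of 60656).

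Genes whose mean reached 1 in some group of the line entered the test, on log2(value + 1) with limma 3.58.1 (R 4.3.3), with a trend, over the 12 libraries of a line (36 between lines), and Benjamini-Hochberg adjustment over all tested genes at 0.05. Fold changes are on that scale and understate changes of low genes. BRAFi + MEKi against DMSO was simulated in 1205Lu (22144 genes), WM793 (22074) and A375 (24370). Of 100 genes changed by 1 on the log2 scale, 56, 74 and 79 were called in these lines. Of 100 changed by 2, 92, 97 and 95 were called, as were 8 unchanged genes in each line. The spread was normal and all changed genes had a mean over about 100. Far fewer genes were changed than were called in the data, so these rates need not hold for the tests above, nor for low genes.

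The paper's methods describe in vitro replicates as independent experiments, which the labels do not repeat for these libraries. The labels give groups the same replicate numbers. Deviations of same-numbered libraries correlated above 0.1 in all 3 pairs only for DOX under BRAFi + MEKi in 1205Lu (0.274, 0.109 and 0.113) and WM793 (0.251, 0.177 and 0.105), where the numbers were taken as pairs. Alternatives were a pseudocount of 0.1, no filter, rescaled libraries, a fit of only the libraries compared, array weights, a replicate block and leaving out each library. Members and gene lists were chosen with earlier results of these data known. All 10 members are named. Of other lists, up to 4 called, non-overlapping genes with the largest fold change are named, besides the 10 genes most like the members. Promoter sequences came from RefSeq (GRCh38.p14).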

Additional observations from a re-analysis of the deposited data

Results flagged for a closer look

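Of 60 tests of whether an effect on a member differed between lines, 11 passed limma's test after adjustment over all genes, and all 11 concern BRAFi + MEKi against DMSO. Between 1205Lu and WM793 the log2 effects differed by -1.91 ± 0.32 (SE) for ATF4, -3.61 ± 0.64 for ASNS, -5.66 ± 1.19 for CHAC1, -2.05 ± 0.64 for DDIT3, -1.67 ± 0.39 for SESN2 and 2.53 ± 0.40 for DDIT4. Between 1205Lu and A375 they differed by -4.10 ± 1.19 for CHAC1, -1.47 ± 0.39 for SESN2 and 2.14 ± 0.40 for DDIT4. Between WM793 and A375 they differed by 1.18 ± 0.32 for ATF4 and 1.83 ± 0.64 for ASNS. Over all genes 14.5%, 14.7% and 22.8% differed for these pairs of lines in turn, and the share of members for the last pair was near that. As given above, single libraries decided 3 calls: DDIT3 between 1205Lu and WM793, CHAC1 between 1205Lu and A375 and ASNS between WM793 and A375. Each was lost when some single library was left out. ATF4, ASNS, CHAC1 and SESN2 moved in opposite called directions in 1205Lu and WM793, the lines grown in the same medium. The cause of these differences was not tested.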

How the results depend on the processing

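No member result changed sign past the threshold under any alternative. Apart from leaving out single libraries, alternatives moved the count of members called, here over all 10, by over 1.5 times in 10 comparisons, given here. For BRAFi + MEKi + DOX against DMSO + DOX in 1205Lu (5) the count was 2 with no filter, 1 with only the libraries compared and 8 with array weights. For DOX under BRAFi + MEKi it was 1 with array weights and 1 with the replicate block in 1205Lu (0), and 6 with array weights and 1 with the replicate block in WM793 (0). For the difference of DOX effects in WM793 (0) it was 2 with array weights, with 43 calls over all genes. For BRAFi + MEKi against DMSO in A375 (3) it was 6 with only the libraries compared, while all-gene calls went from 9635 to 10037. For the inhibitor effect in 1205Lu minus A375 (3) it was 6 with array weights and 6 without both libraries that stood apart. All-gene calls there went from 3945 to 5673 and 4422. In WM793 minus A375 (2), where all-gene calls went from 6117 to 4803 with no filter, the count was then 1. For the DOX effect it was 1 with array weights and 1 without both libraries in 1205Lu minus WM793 (0), and 1 with array weights, 1 with the replicate block and 1 without both libraries in 1205Lu minus A375 (0). For the DMSO level in WM793 minus A375 (4) it was 2 with no filter, while all-gene calls went from 12716 to 11225. For the inhibitors without and with DOX, leaving out 1 library gave 4 to 7 and 3 to 7 in 1205Lu and 2 to 6 and 2 to 5 in A375. In WM793 it gave 8 to 9 and 9 to 10 of 10, counts that include NUPR1, which the filter kept only through the groups with inhibitors. Without NUPR1 the main counts there are 7 of 9 and 9 of 9, so these ranges are not on the same footing. For DOX it gave 0 under DMSO in each line, 0 to 1 (1205Lu), 0 to 2 (WM793) and 0 (A375) under BRAFi + MEKi, and 0 to 1 for the difference in WM793 and 0 in the other lines. Between lines it gave 5 to 7, 2 to 5 and 1 to 3 for the inhibitor effect, 0, 0 to 1 and 0 for the DOX effect and 6 to 9, 3 to 4 and 2 to 5 for the DMSO level, in the order 1205Lu minus WM793, 1205Lu minus A375 and WM793 minus A375. The cause of these shifts was not tested.

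With no filter, 15 of 240 member results lost their call, as named in the report, and none gained it. Over all genes, calls for BRAFi + MEKi + DOX against DMSO + DOX in 1205Lu numbered 6252, but 9662 with array weights and 4155 with no filter, and those for DOX under BRAFi + MEKi numbered 74 in 1205Lu (1379 with array weights, 364 blocked, 3 with no filter) and 45 in WM793 (478, 127 and 10), and 0 in both with only the libraries compared. All-gene counts for DOX also ranged over these alternatives from 17 to 419 (WM793, 113) and 0 to 79 (A375, 12) under DMSO, from 34 to 1035 in A375 under BRAFi + MEKi (370), from 19 to 236 for the difference in A375 (112), and between lines from 17 to 837 (1205Lu minus WM793, 37), 45 to 785 (1205Lu minus A375, 48) and 181 to 746 (WM793 minus A375, 236). In 1205Lu the replicate block added DDIT4 and NUPR1 to the BRAFi + MEKi calls (adjusted p = 0.00478 and 0.0257). To those with DOX it added CHAC1 and NUPR1 (0.0297 and 0.0387). The numbers were not taken as pairs in either comparison. Same-numbered libraries correlated at 0.155, 0.178 and 0.083 without DOX, the last under the cut of 0.1, and at 0.157, 0.0777 and 0.0591 with it. Without DOX all 6 libraries correlated best with their own number. The block changed no other member's call but the 3 named in the report. Rescaling libraries to the same total moved the median log2 fold change of all genes for BRAFi + MEKi from 0.15 to 0.33 in WM793 and from 0.06 to 0.20 in A375, against which changes near those sizes should be read. Blocks lie within a line, so no blocked DMSO level between lines was run.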
